A study of Mus musculus with 6 samples.

Results

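The NF-kB subunit and IkB genes were followed in RNA-seq gene counts of primary mouse myeloid cells. The 10 genes were chosen by name: the 5 subunit genes Nfkb1, Nfkb2, Rel, Rela and Relb, the 3 classical IkB genes Nfkbia, Nfkbib and Nfkbie, and the 2 atypical IkB genes Nfkbiz and Bcl3. All 10 were found among the 25751 genes of the deposited table, and all 10 were among the 14626 genes tested. The treated group was 3 libraries of wild-type primary cells exposed to trimethylamine N-oxide (TMAO), a product of gut bacteria and liver from dietary choline and carnitine, and the control group was 3 libraries of wild-type primary cells without it. Both groups are labelled 24 h. The labels give no TMAO dose, mouse strain, age or sex, and they call the cells only myeloid. The sample descriptions name the treated libraries T-BMDM and the others Control, without explaining the difference. Nothing in the labels says that libraries of a group came from separate animals or cultures. The p-values therefore reflect no more than library-to-library spread, and that spread may be technical.

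NF-kB transcription factors are dimers of the subunits p50 (made from Nfkb1), p52 (made from Nfkb2), RelA, RelB and c-Rel. Classical IkB proteins hold the dimers in the cytoplasm until the IKK kinase marks them for ubiquitination and destruction, and the freed dimers then switch on inflammatory genes, including genes of their own inhibitors. The atypical proteins IkB-zeta (Nfkbiz) and Bcl-3 act in the nucleus, where they bind p50 or p52 dimers and change which genes are transcribed. In macrophages the pathway is known for the response to microbial products and cytokines.

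Library totals ran from 37759007 to 41735109 counts. On log2 CPM, the correlation across genes was 0.983 to 0.990 within a group and 0.897 to 0.930 between groups. CPM here means library-scaled counts, with TMM factors from edgeR. Of 12 macrophage markers 4 were higher with TMAO, 5 were lower and 3 did not pass the test. Over all genes tested, 33.0% were called higher and 32.7% lower, which applies to each marker count in this paragraph. The count of higher macrophage markers is near that background and is not a result about the list. Lyz2 averaged 37357 CPM with TMAO and 37023 CPM in controls, without a call. Those lower were Mertk (16.3 CPM with TMAO, 162 CPM in controls), Fcgr1 (59.9 and 251 CPM), Adgre1 (526 and 1705 CPM), Cd68 (1324 and 2324 CPM) and Csf1r (2108 and 2560 CPM). Of those higher, Cd14 had the largest fold change, at 3726 CPM with TMAO and 522 CPM in controls. The summed level of the list, 42366 to 51590 CPM with TMAO and 44004 to 48840 CPM in controls, says little about these genes, since Lyz2 alone made up 77.6 to 81.2% of it with TMAO and 79.6 to 81.3% in controls. Markers of other cell types moved with the groups: 14 of 16 neutrophil markers were higher and 1 was lower with TMAO. Their summed level was 4521 to 5773 CPM with TMAO and 474 to 516 CPM in controls. Most of the control sum came from Mmp8 (250 CPM with TMAO, 232 CPM in controls, not called) and Csf3r (102 and 167 CPM, lower). Among those 14, Mpo averaged 158 CPM with TMAO and 0.0413 CPM in controls, Elane 234 and 0.101 CPM, and S100a9 1851 and 17.4 CPM. The lowest of the 14 with TMAO were Ly6g (0.609 and 0.0333 CPM), Retnlg (4.02 and 0.0676 CPM) and Cxcr2 (6.13 and 0.38 CPM). All 8 monocyte markers were higher, at summed levels of 1381 to 1442 CPM with TMAO and 410 to 509 CPM in controls. Of 7 dendritic cell markers tested, 6 were higher and 1 was lower. The list's summed level was 196 to 213 CPM with TMAO and 92.1 to 111 CPM in controls. Most of that sum was H2-Ab1 (172 CPM with TMAO, 44.1 CPM in controls) and Itgax. Itgax, the marker that was lower, averaged 23.1 CPM with TMAO and 56.9 CPM in controls. Flt3, Zbtb46, Xcr1 and Siglech averaged no more than 1.5 CPM in either group. Of 7 B cell markers tested, 6 were higher and none was lower, at summed levels of 33.1 to 35.5 CPM with TMAO and 9.06 to 11.4 CPM in controls. Only 1 of 6 T and NK cell markers could be tested. It was Nkg7, which was higher, at 1.96 CPM with TMAO and 0 CPM in controls. The list's summed level, with TMAO mostly Nkg7, was 2.14 to 2.76 CPM with TMAO and 0.309 to 0.751 CPM in controls. Klrb1c, Cd2 and Cd3e averaged lower with TMAO and Cd3g and Trac higher, all at no more than 0.46 CPM in any library. Cd209a, Siglech, Pax5, Ebf1, Cd3g, Nkg7 and Trac were at 0 in all controls. No neutrophil or monocyte marker was at 0 in all controls, but Mpo, Elane and Ctsg were at no more than 0.206 CPM in any control. The part of these shifts in the results on the NF-kB genes was not tested, and in bulk RNA fewer cells of a type cannot be told apart from less RNA per cell.

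Of the 10 NF-kB and IkB genes, 9 rose with TMAO and none fell. The gene that did not pass the test was Rel, which encodes c-Rel. The 4 subunit genes that rose did so by 2.17-fold to 2.50-fold, and the 5 IkB genes by 2.26-fold to 5.45-fold, with Nfkbib at the top and Nfkbiz after it at 4.48-fold. Calls are at an adjusted p under 0.05 by edgeR's quasi-likelihood test. Change was common in these libraries: 33.0% of all genes tested were called higher and 32.7% lower. At least a 2-fold rise was called for 15.7% of genes tested and for 9 of the 10 members. Against a fold of 1.5 (edgeR glmTreat), 18.0% of genes were called higher, and 9 of the 10 members were. All 3 TMAO libraries lay above all 3 control libraries in 35.6% of genes tested, and in 9 of the 10 members. The median log2 fold change was 1.30 over the members and 0.01 over all genes tested. The members were chosen with earlier results of these data known, so these counts describe the genes and test nothing about the list.

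**Figure D1:**
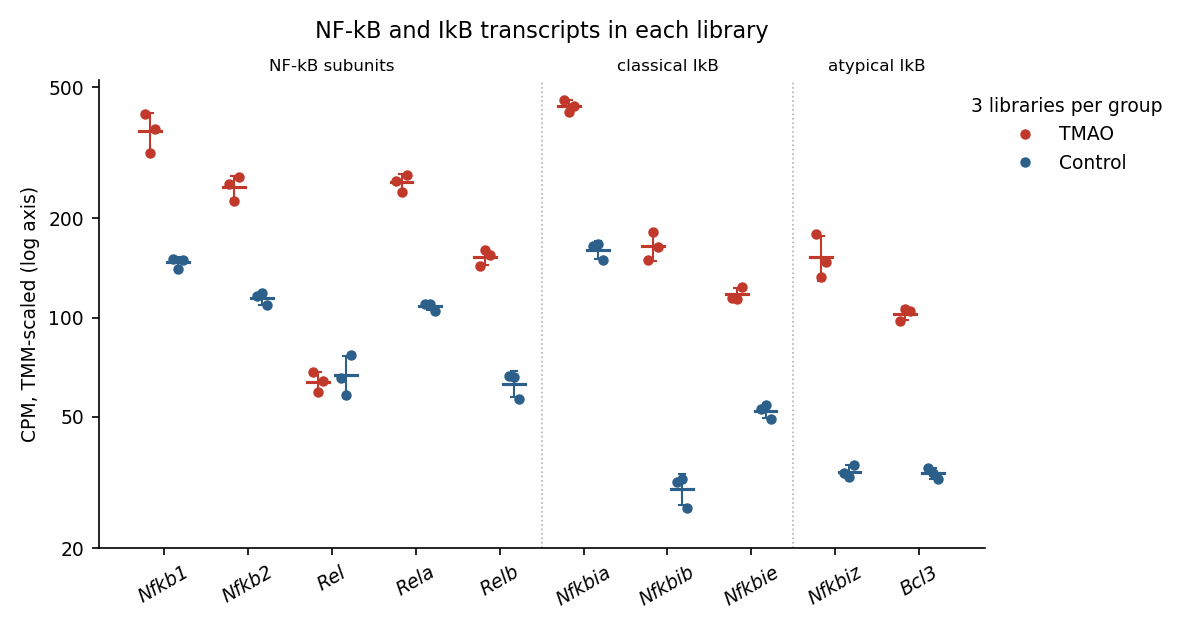
Transcript levels of the 10 genes in each library (vertical axis, TMM-scaled CPM on a log axis), with TMAO in red left of control in blue; points are libraries, horizontal lines group means and error bars SD over 3 libraries. Nfkbia was at 421 to 456 CPM with TMAO and 149 to 167 CPM in controls, and the groups overlapped only for Rel.

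The start regions of these genes are of interest because NF-kB binds a DNA element of 10 bases, the kB site, and 9 of the 10 members were called higher. RefSeq promoter windows (GRCm38.p6, 250 bases before to 50 after a start site) were at hand for 7 of the 10 members; Nfkb1, Relb and Nfkbiz had none. The windows were searched on both strands for the kB consensus and for its looser frame GGGNNNNNCC, which contains every consensus match. Consensus matches were found for 5 of the 7 members, against 5.14% of 27025 genes with a window; the looser frame occurred in 53.5% of genes. A match is a description of letters, not of binding. The 4 windows printed are those of the most abundant member (Nfkbia), of a subunit gene with more than 1 match (Nfkb2), of the member that was not called (Rel) and of the member with the largest fold change (Nfkbib). Capitals mark the bases of consensus matches on either strand, and each window is given 5′ to 3′ along its gene.
Nfkbia, chr12:55492598-55492897, minus strand: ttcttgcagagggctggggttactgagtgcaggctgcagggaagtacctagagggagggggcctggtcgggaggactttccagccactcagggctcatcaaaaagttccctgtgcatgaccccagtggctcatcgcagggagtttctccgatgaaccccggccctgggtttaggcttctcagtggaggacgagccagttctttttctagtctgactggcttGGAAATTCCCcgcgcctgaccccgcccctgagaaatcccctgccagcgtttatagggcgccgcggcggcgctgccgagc
Nfkb2, chr19:46304487-46304786, plus strand: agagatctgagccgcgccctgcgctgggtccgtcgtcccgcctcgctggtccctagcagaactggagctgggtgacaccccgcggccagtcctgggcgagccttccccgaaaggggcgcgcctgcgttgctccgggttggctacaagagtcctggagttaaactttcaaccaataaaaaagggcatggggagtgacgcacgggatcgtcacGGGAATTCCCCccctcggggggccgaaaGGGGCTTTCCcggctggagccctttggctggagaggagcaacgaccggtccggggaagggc
Rel, chr11:23770920-23771219, minus strand: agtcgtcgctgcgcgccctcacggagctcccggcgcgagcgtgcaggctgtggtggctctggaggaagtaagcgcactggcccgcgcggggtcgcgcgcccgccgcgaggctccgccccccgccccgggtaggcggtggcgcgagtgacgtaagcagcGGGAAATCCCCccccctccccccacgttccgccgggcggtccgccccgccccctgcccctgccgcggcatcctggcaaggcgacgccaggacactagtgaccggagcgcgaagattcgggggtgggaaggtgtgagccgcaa
Nfkbib, chr7:28766595-28766894, minus strand: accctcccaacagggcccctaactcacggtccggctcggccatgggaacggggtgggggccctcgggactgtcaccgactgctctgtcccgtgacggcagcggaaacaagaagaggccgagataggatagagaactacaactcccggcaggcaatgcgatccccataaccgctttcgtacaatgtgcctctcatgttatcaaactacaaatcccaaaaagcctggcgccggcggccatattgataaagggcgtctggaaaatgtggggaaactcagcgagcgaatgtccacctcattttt

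The Nfkbia match, GGGAATTTCC on the reverse strand, lay at bases -29 to -20 from the start site. Nfkb2 had GGGAATTCCC at -39 to -30, a palindrome that overlaps GGGGAATTCC on the reverse strand, and GGGGCTTTCC at -11 to -2. A second Nfkb2 start region held GGGACTTTCC at 11 to 20 and GGGACATTCC on its reverse strand at -236 to -227; the third window overlaps that region. In the Rel window GGGAAATCCC lay at -92 to -83, overlapped by GGGGATTTCC on the reverse strand. Nfkbie held GGGGGATTCC at -106 to -97 and Bcl3 held GGGACTTCCC on the reverse strand at 3 to 12. No consensus match lay in the windows of Rela and Nfkbib, and the Nfkbib window also lacked the looser frame. Rel, which has a match, was not called in the reported fit. It was called higher with a trend on transcript length removed (log2 fold change 0.53, edgeR adjusted p = 6.01e-05). Nfkbib, which has none, had the largest fold change of the members in the reported fit. A link between matches and fold changes was not tested.

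Among the subunit genes, both precursor genes rose. Nfkb1, whose product p105 is processed to p50, had 413, 316 and 373 CPM in the TMAO libraries and 151, 140 and 150 CPM in the controls. The TMAO libraries differed among themselves more than the controls did, but the lowest was above every control. The log2 fold change of Nfkb1 was 1.32 (SE 0.11, edgeR adjusted p = 2.55e-06). Nfkb2, whose product p100 gives p52 in the non-canonical pathway, had 254, 226 and 266 CPM with TMAO and 116, 119 and 109 CPM in controls. The groups did not overlap, and the log2 fold change was 1.12 (SE 0.09, edgeR adjusted p = 2.69e-06). It was the smallest among the 9 members called.

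The genes of RelA and RelB, subunits with a transactivation domain, rose to a like extent. Rela had 260, 241 and 270 CPM with TMAO and 110, 110 and 105 CPM in controls, a log2 fold change of 1.24 (SE 0.08, edgeR adjusted p = 7.31e-07). Replicates lay close together in both groups, which did not overlap. Relb, the usual partner of p52, had 143, 160 and 155 CPM with TMAO and 66.7, 66.1 and 56.5 CPM in controls, a log2 fold change of 1.28 (SE 0.10, edgeR adjusted p = 1.74e-06). Its groups were also apart.

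Rel, whose product c-Rel is known in macrophages as a regulator of interleukin-12 subunit genes, stood apart from the other subunits. It had 68.3, 59.3 and 64.4 CPM with TMAO and 65.6, 58.1 and 77.2 CPM in controls. The groups overlapped, and the highest value of all was a control library. The log2 fold change was -0.07 (SE 0.11, edgeR adjusted p = 0.634). The Rel transcript is also the longest of the 10, at 7.47 kb, and its GC content, 42.5%, the lowest. Long genes as a whole were lower with TMAO. In 5 equal groups of genes by length, the median was 0.49 on the log2 scale for the shortest genes (up to 1.53 kb) and -0.53 for the longest (from 4.93 kb), where 16.0% of genes were called higher and 57.7% lower. With this trend removed, Rel was called higher, at a log2 fold change of 0.53 (SE 0.07, edgeR adjusted p = 6.01e-05; range over its alternatives 6.01e-05 to 1). With the trend on GC content removed it was 0.17 (edgeR adjusted p = 0.155), and without control replicate 3 it was 0.04 (edgeR adjusted p = 0.768). Rel had the smallest fold change of the 10 members in each of these 3 settings.

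**Figure D2:**
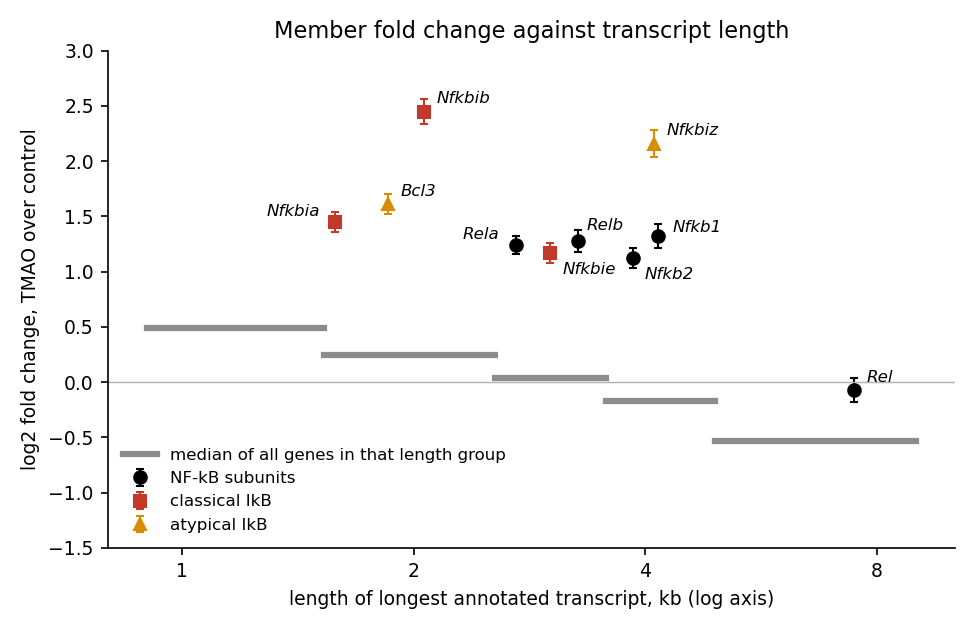
Log2 fold change of each member, TMAO over control (vertical axis), against the length of its longest annotated transcript in kb (horizontal log axis), with error bars of 1 SE; grey lines are medians of all genes tested in 5 equal groups by length, the outer ones drawn only in part. The medians fall from 0.49 to -0.53 with length, Rel lies at 7.47 kb and -0.07, and every member lies above the median of its length group.

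The classical IkB genes all rose. Nfkbia encodes IkB-alpha, which NF-kB itself induces and which takes NF-kB back out of the nucleus. It had 456, 421 and 438 CPM with TMAO and 165, 167 and 149 CPM in controls, with no overlap, and its log2 fold change was 1.45 (SE 0.09, edgeR adjusted p = 3.35e-07). Nfkbie encodes IkB-epsilon, an inhibitor known to restrain RelA and c-Rel dimers. It had 115, 114 and 124 CPM with TMAO and 52.7, 54.4 and 49.2 CPM in controls, a log2 fold change of 1.17 (SE 0.09, edgeR adjusted p = 1.44e-06). Its spread was small in both groups and the groups were apart.

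Nfkbib encodes IkB-beta, an inhibitor that is degraded more slowly than IkB-alpha and can also stabilise NF-kB on some promoters. It had 149, 182 and 164 CPM with TMAO and 31.8, 32.5 and 26.5 CPM in controls. The lowest TMAO library was above every control by a wide margin, and the log2 fold change of 2.45 (SE 0.11, edgeR adjusted p = 7.10e-08) was higher than that of 95.7% of all genes tested. Per kilobase of transcript, Nfkbib was below Nfkbie in every control library and above it in every TMAO library. The Nfkbib level over the Nfkbie level was 1.89, 2.33 and 1.92 in the TMAO libraries and 0.878, 0.872 and 0.784 in the controls. Nfkbia over Nfkbib on the same scale was 3.99, 3.03 and 3.49 with TMAO and 6.78, 6.70 and 7.36 in controls. The inhibitor transcripts thus did not change in proportion. Such ratios without overlap were common, at 68.0% of all pairs of genes tested with a count in every library.

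Both atypical genes rose. Nfkbiz had 179, 133 and 147 CPM with TMAO and 33.7, 32.9 and 35.8 CPM in controls, a log2 fold change of 2.16 (SE 0.12, edgeR adjusted p = 1.98e-07). The TMAO libraries were spread more widely than for any other member relative to their mean, at a coefficient of variation of 15.4% against 4.37% in controls, and still did not reach the controls. Bcl3 had 97.6, 106 and 105 CPM with TMAO and 35.0, 33.9 and 32.4 CPM in controls, a log2 fold change of 1.61 (SE 0.09, edgeR adjusted p = 1.86e-07), again without overlap.

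**Figure D3:**
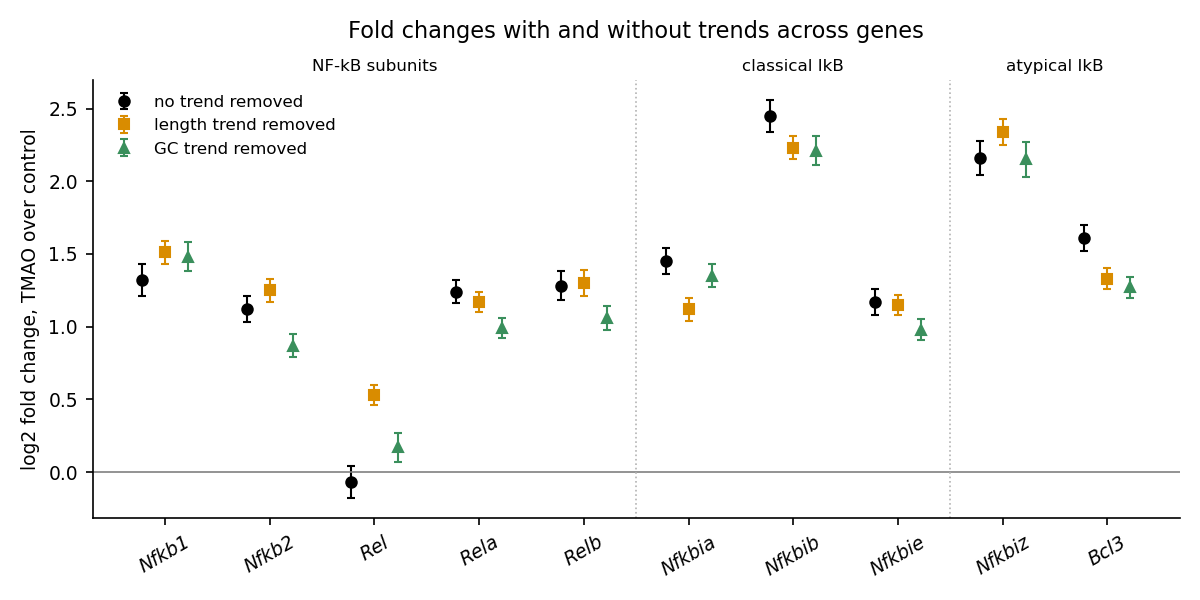
Log2 fold change of each member, TMAO over control (vertical axis), with no trend removed (circles) and with the trend across genes on transcript length (squares) or GC content (triangles) removed; error bars are 1 SE from the fit to 6 libraries. Apart from Rel, the members stay between 0.87 and 2.45, and Rel moves from -0.07 to 0.53 and 0.17.

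Set side by side as classes, the subunit genes had a median log2 fold change of 1.24, the classical IkB genes 1.45 and the atypical IkB genes 1.89. The order of the first 2 depended on the length trend: with it removed the medians were 1.25 for subunits, 1.15 for classical IkB genes and 1.84 for atypical IkB genes, with Nfkbia, at 1.58 kb the shortest member, at 1.12. Over all 5 IkB genes the median was then 1.33, and 1.61 without the correction. A higher response of the classical inhibitors than of the subunits was thus not stable to this setting, whereas Nfkbib and Nfkbiz stayed at 2.23 and 2.34. In every other setting the classical median stayed above the subunit median, at 1.35 and 0.99 with the GC trend removed.

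Levels of different genes were compared per kilobase of the longest annotated transcript. With TMAO the order was Nfkbia at 278 ± 11.2 CPM per kb, Rela at 94.5 ± 5.37, Nfkb1 at 88.6 ± 11.7, Nfkbib at 80.0 ± 7.88, Nfkb2 at 64.6 ± 5.28, Bcl3 at 55.6 ± 2.51, Relb at 46.7 ± 2.73, Nfkbie at 39.1 ± 1.93, Nfkbiz at 37.2 ± 5.70 and Rel at 8.57 ± 0.605 CPM per kb (SD, n = 3). Neighbours whose libraries overlapped in that order were Rela and Nfkb1, Nfkb1 and Nfkbib, and Nfkbie and Nfkbiz. In controls the order was Nfkbia at 102 ± 6.17 CPM per kb, Rela at 39.9 ± 1.07, Nfkb1 at 35.4 ± 1.38, Nfkb2 at 29.8 ± 1.32, Relb at 19.3 ± 1.75, Bcl3 at 18.3 ± 0.713, Nfkbie at 17.3 ± 0.874, Nfkbib at 14.7 ± 1.60, Rel at 8.97 ± 1.29 and Nfkbiz at 8.29 ± 0.361 CPM per kb (SD, n = 3). Relb and Bcl3, Bcl3 and Nfkbie, and Rel and Nfkbiz overlapped there. Nfkbia was thus the most abundant transcript of the 10 in both groups, Rel was lowest with TMAO, and Rel and Nfkbiz could not be ordered in controls.

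Summed per kilobase, the 5 subunit genes came to 314, 281 and 314 CPM per kb with TMAO and 136, 133 and 131 in controls. The 3 classical IkB genes came to 400, 393 and 399 CPM per kb with TMAO and 137, 140 and 124 in controls. Each class was more than doubled in mean level, with no overlap. The classical IkB sum over the subunit sum was 1.27, 1.40 and 1.27 with TMAO and 1.01, 1.05 and 0.946 in controls. This ratio of transcripts was higher in every TMAO library than in any control, but it was not corrected for the length trend. Nfkbia over the subunit sum was 0.919 ± 0.0335 with TMAO and 0.761 ± 0.0362 in controls (SD, n = 3), and Nfkbib over it was 0.266 ± 0.0433 with TMAO and 0.110 ± 0.0105 in controls (SD, n = 3). Both were thus higher with TMAO on this uncorrected scale. With the length trend removed, however, the log2 fold change of Nfkbia, 1.12, was below the subunit median of 1.25. Nfkbie over the subunit sum was 0.129 ± 0.00664 with TMAO and 0.130 ± 0.00542 in controls (SD, n = 3). The sum of the 2 atypical genes was 92.8 ± 3.28 CPM per kb with TMAO and 26.5 ± 0.503 in controls (SD, n = 3).

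**Figure D4:**
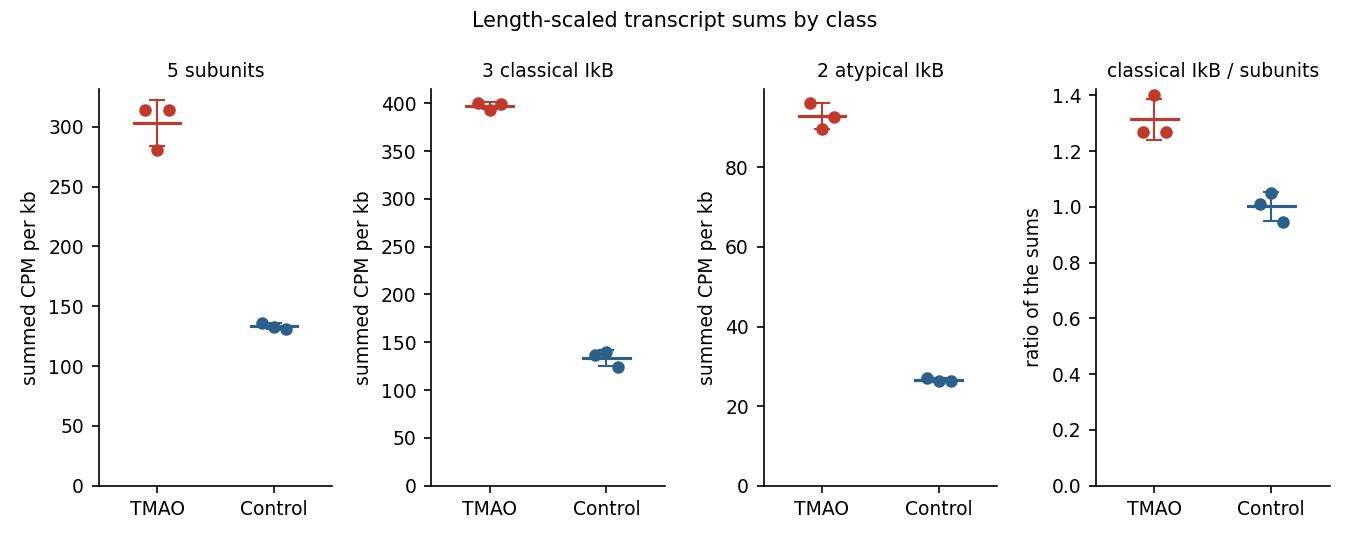
Summed length-scaled levels (vertical axes, CPM per kb) of 5 subunit, 3 classical IkB and 2 atypical IkB genes, and the ratio of the classical IkB sum to the subunit sum, in the TMAO libraries (red) and controls (blue); points are libraries, lines means and error bars SD over 3 libraries. The ratio averages 1.31 with TMAO and 1.00 in controls.

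The ratio between 2 genes of the same library does not depend on how libraries are scaled. All 45 pairs of members were compared by an exact two-sided permutation test of the log2 ratio, which with 3 libraries against 3 cannot go below p = 0.1 (0.141 after Benjamini-Hochberg adjustment over the 45 pairs), so no pair could pass. In 32 of the 45 pairs the ratios of the groups did not overlap. Among all pairs of the 14271 genes tested that had a count in every library the share was 68.0%, so this count is near the background and is not a result about the members. Rel over Rela was 0.0957, 0.0896 and 0.0869 with TMAO and 0.217, 0.192 and 0.267 in controls (exact permutation p = 0.1, the smallest possible). Among Nfkb1, Nfkb2, Rela and Relb, Nfkb1 over Nfkb2 differed by 0.20 on the log2 scale and Nfkb2 over Rela by -0.13, both without overlap. Nfkb1 over Relb was 2.28, 1.56 and 1.90 with TMAO and 1.78, 1.67 and 2.10 in controls, an overlap (exact permutation p = 0.9). Like all values per length, these ratios carry the length trend.

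Of 24 genes of the IKK complex, its upstream kinases and adaptors, 9 rose, 5 fell and 10 did not pass the test, with a median log2 fold change of -0.03. Over all genes tested 33.0% were called higher and 32.7% lower, so the count of higher genes is near the background and is not a result about this list. Traf1, an adaptor of TNF receptors, had a log2 fold change of 3.04, Malt1, the protease of the CARD and BCL10 signalling complex, 1.44, and Tank, which binds TRAF proteins, 1.19. Those that fell most were the kinase genes Map3k3 (-1.17) and Map3k8 (-0.82) and the TAK1 adaptor gene Tab3 (-0.80). The genes of the IKK subunits, named after their values were seen, differed by small amounts. Ikbkb averaged 144 ± 7.63 CPM with TMAO and 115 ± 3.21 CPM in controls (SD, n = 3; edgeR adjusted p = 0.00494), whereas Chuk averaged 44.9 and 51.9 CPM and Ikbkg 80.8 and 73.0 CPM, without a call (edgeR adjusted p = 0.0933 for Chuk and 0.193 for Ikbkg). Map3k14, the NIK kinase that drives p100 processing, fell, at 12.8 ± 2.66 CPM with TMAO and 17.2 ± 1.10 CPM in controls (SD, n = 3; edgeR adjusted p = 0.0337).

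Of 11 genes of the ubiquitin ligase that marks IkB proteins, and of its helpers, 7 rose and none fell (median log2 fold change 0.36). Over all genes tested the shares were 33.0% higher and 32.7% lower. Cdc34, a ubiquitin-conjugating enzyme, had a log2 fold change of 1.10, the ligase subunit gene Rbx1 0.69 and Ube2d2a, another conjugating enzyme, 0.68. The substrate receptors Btrc and Fbxw11, named after their values were seen, did not pass the test, at log2 fold changes of -0.20 and -0.14. Of 14 other IkB-family genes and nuclear modulators, 7 rose and 3 fell (median 0.34), against the same shares over all genes tested. Nfkbid, another atypical IkB gene, averaged 53.2 ± 5.15 CPM with TMAO and 25.5 ± 0.838 CPM in controls (SD, n = 3; log2 fold change 1.06, edgeR adjusted p = 7.50e-06). Ppp4c, a phosphatase subunit gene, had a log2 fold change of 1.32 and Nkiras1, a small GTPase that binds IkB-beta, 0.89. Ep300 and Crebbp, acetyltransferase genes that act as NF-kB coactivators, fell (-1.32 and -0.25), as did Pias1 (-0.43).

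Of 30 target genes of NF-kB outside the 10 members, 28 rose and none fell, with a median log2 fold change of 2.76; Traf1 is in this list too. Those with the highest log2 fold changes were Cxcl2 (6.02), Il1b (5.85) and Ptgs2 (5.85). The targets not called were Ccl5 and Vcam1 (-0.04 and -0.03), named after their values were seen. Of 7 genes tested among 8 known to need IkB-zeta, 6 rose. Ccl22, Lcn2 and Ebi3 had log2 fold changes of 3.64, 3.09 and 0.58, while Saa3, named after its value was seen, was at 1733 ± 385 CPM with TMAO and 1963 ± 145 CPM in controls (SD, n = 3; edgeR adjusted p = 0.296). Lcn2 is also a neutrophil marker, and those markers were higher in the same libraries. Of 11 housekeeping genes 6 rose and 3 fell, with a median log2 fold change of 0.42. Shares over all genes tested, 33.0% higher and 32.7% lower, apply to each of these counts. These lists were drawn up with earlier results of these data known.

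**Figure D5:**
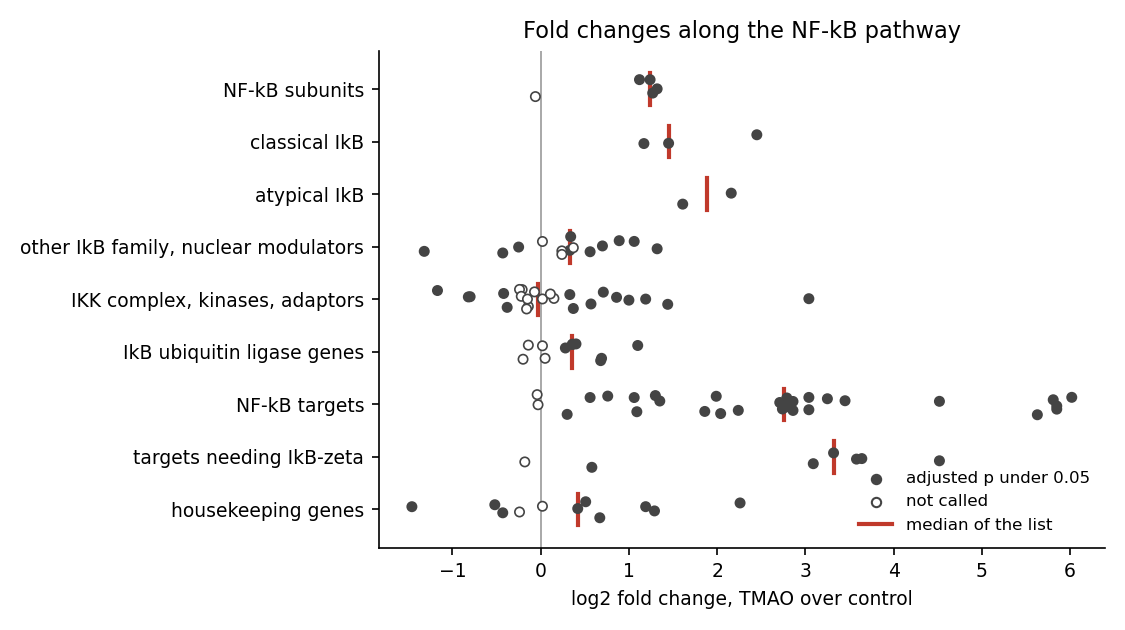
Log2 fold change, TMAO over control (horizontal axis), of each gene tested in 9 lists along the NF-kB pathway (rows); filled points have an adjusted p under 0.05, open points do not, red bars are list medians and vertical scatter within a row has no meaning. NF-kB targets (median 2.76) and members lie to the right, and the IKK list is centred near 0 (median -0.03).

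Exons of 3 members overlap genes on the opposite strand in the GENCODE annotation, and without a stated strand setting such reads cannot be told apart. Psd shares 299 of the 4584 exonic bases of Nfkb2 and had 1438, 1114 and 1395 counts with TMAO and 354, 405 and 375 in controls, next to 10061, 8220 and 10190 and 4527, 4908 and 4497 counts of Nfkb2. The RNA gene AC114539.1 shares 531 of them, with 591, 795 and 667 counts with TMAO and 252, 279 and 271 in controls. Sirt2 shares 42 of the 2169 exonic bases of Nfkbib and was not called (log2 fold change -0.15, edgeR adjusted p = 0.184). Ccer2, which shares 314 of them, has no row in the deposited counts, so its reads could not be checked. The partner of Bcl3, Gm16175, had 13, 12 and 9 counts with TMAO and 0, 0 and 1 in controls. The partners with counts had fewer than their member, except Sirt2 in the controls.

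Genes with the most similar profile over the 6 libraries were sought among 9182 genes averaging 5 CPM or more, by the Euclidean distance of centred log2 values. Nearest to Nfkb1 were Atg2a (distance 0.07), Espl1 (0.11) and Dusp6 (0.12). Nearest to Nfkbia were Mcm7 (0.10), Nr4a1 (0.11) and Zdhhc18 (0.12), and nearest to Rel were Lats1 (0.06), Usp37 (0.06) and Slx4 (0.09). Nfkbiz had fewer close neighbours, with Kif23 at 0.10, Dusp16 at 0.22 and Tnfaip3 at 0.24. With 2 groups of 3 libraries, such a distance mainly reflects an equal fold change.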

How the data were processed

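Per the labels' protocols, poly(A) RNA was selected from TRIzol extracts and sequenced in paired-end libraries; sequencers of 2 makers are named, not tied to libraries, so a platform difference between groups cannot be told apart from TMAO. The authors deposited 1 table of raw, unnormalized gene counts (Ensembl IDs, 6 libraries). Per the submitters' processing notes the build was GRCm39. The aligner, counter, strand setting and annotation were not given in the sources used here. Columns were matched to samples by their deposited descriptions.

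Symbols, transcript lengths and GC content came from GENCODE M21 (older build GRCm38, matched by ID; 25386 of 25751 IDs had a symbol), and promoter windows from RefSeq on GRCm38.p6. No other coordinates are printed. The test was edgeR 4.0.16 under R 4.3.3 with limma 3.58.1: filterByExpr with a minimum count of 10, TMM factors, and the quasi-likelihood F test of TMAO against control without covariates, with Benjamini-Hochberg adjustment over all 14626 genes tested. The SE is the log2 fold change divided by the square root of F. Pairs of libraries in a group differed by a chi-square per degree of freedom of 13.0 to 65.6, so none agreed within sampling noise. Trends on length or GC content were removed by per-library lowess offsets. The steps were tested on simulated data. Alternatives were DESeq2 1.42.0, limma-voom, other scalings, filters and moderation, the replicate block, and leaving out each library. The rule for named genes took all 10 members, and from each other list the 3 highest and 3 lowest called genes averaging 5 CPM or more; others are marked. The members and lists were chosen with earlier results of these data known.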

Additional observations from a re-analysis of the deposited data

How the results depend on the processing

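The 9 members called higher kept their direction and their call under all 19 alternatives. Rel was reversed in 3 of them: its log2 fold change was 0.53, with a call, with the length trend removed, 0.17 with the GC trend removed, and -0.16 to 0.04 when 1 library was left out, positive only without control replicate 3, against -0.07 in the reported fit; the cause was not tested. With the length trend removed all 10 members were called. Of all genes, 9608 were called, and 5184 against a fold of 1.5, a stricter question by construction; the other alternatives gave counts within 1.5 times. No scaling moved the median log2 fold change of all genes by over 0.1. Each scaling is relative to its library, so this median cannot show a shift in the RNA of all genes. With the replicate number as a replicate block, 9723 genes and 9 members were called. The labels do not say that numbers pair the libraries, and deviations of same-numbered libraries correlated at -0.0672 to 0.133, with TMAO replicate 1 closest to control replicate 3. Depth was not limiting, since the lowest count of any member in any library was 1093.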

Other observations

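The members did not vary together within a group. In the TMAO libraries, replicate 2 had the lowest CPM for 7 of the 10 genes, among them Nfkb1, Rela and Nfkbiz, and the highest for the other 3, Relb, Nfkbib and Bcl3. In the controls, replicate 3 was lowest for 7 genes and highest for 2, Rel and Nfkbiz. No cause of this spread was tested.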
